A study of Mus musculus with 4 samples.

Results

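The serum amyloid A genes of the mouse, Saa1, Saa2, Saa3 and Saa4, were followed in cultured spermatogonial stem cells after the growth factor FGF2 was withdrawn and its receptors were inhibited. They were found by their gene name in the array files, which gave 4 genes with 6 probes out of 27729 gene names with 41174 probes. The genes were chosen by their measured ratios of treated over control on these arrays, because Saa3 and Saa1 are among the largest falls, so the ratios of the 4 genes are a description with no test. Spermatogonial stem cells renew themselves in the testis and give rise to sperm. Per the labels they came from mice of C57/BL6 x DBA/2 F1 background at day 5 and grew in serum-free MEMa medium with GDNF (40 ng/ml) and FGF2 (5 ng/ml). The treated cells (-F+S) had FGF2 withdrawn and the FGF receptor inhibitor SU5402 added, and are labelled 12 h. The control cells stayed in the normal medium, and 12 h is given for the treated cells only. Each of 4 two-colour Agilent arrays held 1 treated sample in green (Cy3) and 1 control sample in red (Cy5). Per the design text, both conditions had 4 biological replicates. Dyes were not swapped, so a dye effect of a single probe and the treatment cannot be told apart. The sources used here do not say whether feeder cells were in the cultures.

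Serum amyloid A proteins are small apolipoproteins of the acute phase, the rapid change of secreted proteins during inflammation. In mice, Saa1 and Saa2 are near-identical copies known mainly from the liver, Saa3 is known from macrophages, fat and other tissues outside the liver, and Saa4 is known as a form that inflammation induces little. Interleukin 1, interleukin 6 and tumour necrosis factor induce the acute-phase members through NF-kB, C/EBP and STAT3 factors, and the proteins travel on high-density lipoprotein (HDL) and bind receptors such as Fpr2, Tlr2 and Scarb1.

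What the arrays read is set by the probes, so the sequences that carry the main contrast are shown first. The Saa3 probe (A_51_P337308) lies at chr7:53968031-53968090 on the minus strand (mm9). All 4 sequences printed here have some forward frame without a stop codon. The coding frame was not determined, so this does not show that a probe lies within coding sequence. Saa1 has a bright probe (A_52_P318673, chr7:53996070-53996129) and a dim probe (A_51_P361650), both on the minus strand. The dim probe's 60 bases span 473 bp, chr7:53996167-53996639, so they lie on separate blocks of the genome, and its near end is 37 bases from the bright probe. A further probe (A_52_P525348), whose gene name is none of the 4, is described in the files as a putative serum amyloid A. It lies between Saa4 and Saa1 at chr7:53990256-53990744. Sequences are those of the array files, 5′ to 3′, and capitals mark the bases that the dim Saa1 probe and the putative probe share when laid side by side without gaps, 40 of 50.
Saa3 probe: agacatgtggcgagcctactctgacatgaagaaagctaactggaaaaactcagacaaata
Saa1 bright probe: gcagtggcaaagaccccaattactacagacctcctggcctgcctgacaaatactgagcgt
Saa1 dim probe: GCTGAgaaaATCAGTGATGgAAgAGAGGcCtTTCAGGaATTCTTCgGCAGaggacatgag
Putative serum amyloid A probe: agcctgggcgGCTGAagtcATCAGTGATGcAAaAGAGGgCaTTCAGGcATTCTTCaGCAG
The Saa3 probe and the bright Saa1 probe shared at most 16 of 38 bases in any such placing (42.1%), and every other pair lay between 37.3% and 48.4%, apart from the dim Saa1 probe with the putative probe (80.0%). Probe pairs of the same gene were as low, at 38.3% for Saa1 and 46.5% for Saa4. Such a placing compares probes from different stretches of a transcript, so it cannot show which RNA a probe binds. The array's own accession list for the Saa3 probe also names the Saa1 transcript. Whether the bright Saa1 probe also binds Saa2 RNA was not analysed here, since no transcript sequences were used.

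Saa3, the form known from macrophages, was the most reduced of the members. The treated samples of replicates 1 to 4 had a mean spot signal (linear intensity) of 786, 655, 697 and 753, and the control samples of 27549, 26511, 22526 and 26065. Every treated signal lay far below every control signal, and all 8 were well above background. After normalization within the array the log2 ratio of treated over control was -4.62, -4.61, -4.91 and -5.26, a mean of -4.85 ± 0.31 (SD, n = 4), or 28.9-fold lower. On the normalized scale of each channel the level of Saa3 was 9.66 ± 0.058 in treated and 14.5 ± 0.25 in control cells (log2, SD, n = 4). Ratios are relative to the centre of each array, and in these bulk samples fewer cells of a type and less RNA per cell cannot be told apart.

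The bright Saa1 probe showed the same picture at a smaller size. Treated samples had a signal of 1204, 979.6, 933 and 1118 and control samples of 17684, 18152, 11962 and 16058, again without overlap. Its log2 ratios were -3.39, -3.50, -3.59 and -4.004, with a mean of -3.62 ± 0.27 (SD, n = 4), or 12.3-fold lower. Both genes had their most negative ratio on array 4. Of 18454 genes compared, Saa3 ranked first and Saa1 number 4 from the largest fall, which is how they were chosen. S100a8 (-4.47) and Stfa3 (-4.03) stand between them, and Serpinb2 (-3.59) follows. The order depends on how background is handled: with the scanner LogRatio S100a8 (-5.96) and Stfa3 (-5.24) lay below Saa3 (-5.18), which ranked 3, and Saa1 ranked 12. With normexp at offset 0 S100a8 (-5.22) was lowest, Saa3 ranked 2 and Saa1 7.

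The second Saa1 probe was too dim to measure the gene. Its signals were 62.2, 69.2, 98.7 and 59.4 in treated samples and 116, 118, 146 and 106 in control samples, and only the control signal of array 3 was well above background. Its log2 ratios ran from -0.34 to -0.12, with a mean of -0.21 ± 0.097 (SD, n = 4), and no fold is given, since treated signals were at background. A ratio between signals at background is near 0 whatever the gene does, so the 12.3-fold value of Saa1 rests on the bright probe alone. The 2 probes disagree in the control samples, where the bright probe read 11962 to 18152 and the dim probe, 37 bases away, 106 to 146. Why they differ, and whether the bright signal is that of Saa1 RNA alone, was not tested.

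Saa2, the near copy of Saa1, had 1 probe (A_51_P166886, chr7:54009535-54009594, plus strand), close to background. Signals were 106, 97.1, 86.2 and 108 in treated samples and 164, 160.0, 127 and 146 in control samples. They were well above background in 3 treated and 2 control samples, so Saa2 passed the filter through the treated channel. The log2 ratio was -0.080, -0.12, -0.27 and -0.12, a mean of -0.15 ± 0.083 (SD, n = 4). Raw signals of the dyes are not on one scale: the red signal was also the higher one for Saa4, which was at background in both channels.

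Saa4 was not well above background in any of the 8 samples with either of its probes (A_52_P404329, chr7:53983662-53983721, and A_51_P142529, chr7:53984760-53984819). Its treated signals lay between 47.2 and 58.0 and its control signals between 72.6 and 89.1, with no fold to be given. After normalization both probes were centred on 0, with mean log2 ratios of 0.039 ± 0.10 and 0.039 ± 0.14 (SD, n = 4). Of the 4 genes, 3 therefore passed the filter on dim probes (at least 3 of 4 arrays well above background in 1 and the same channel) and 1 did not. The log2 ratios of the 3 were below 0 on all 4 arrays, which was also true of 34.4% of all genes compared.

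**Figure D1:**
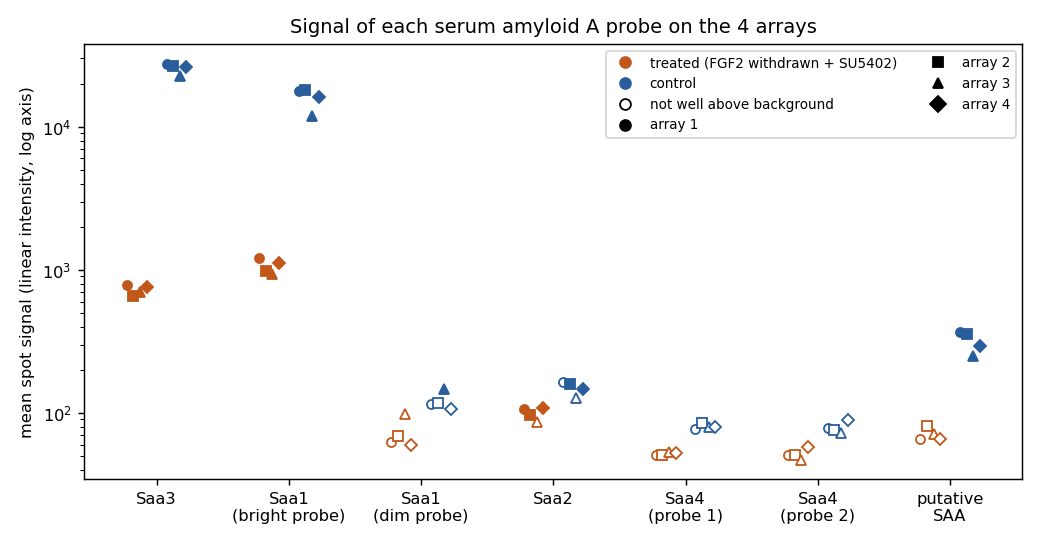
Mean spot signal (linear intensity, logarithmic axis) of the 6 member probes and of the putative serum amyloid A probe on each of the 4 arrays, treated in orange and control in blue; open symbols are not well above background. Saa3 treated samples sit between 655 and 786 and controls between 22526 and 27549, while the dim Saa1 probe, Saa2 and Saa4 reach at most 164.

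**Figure D2:**
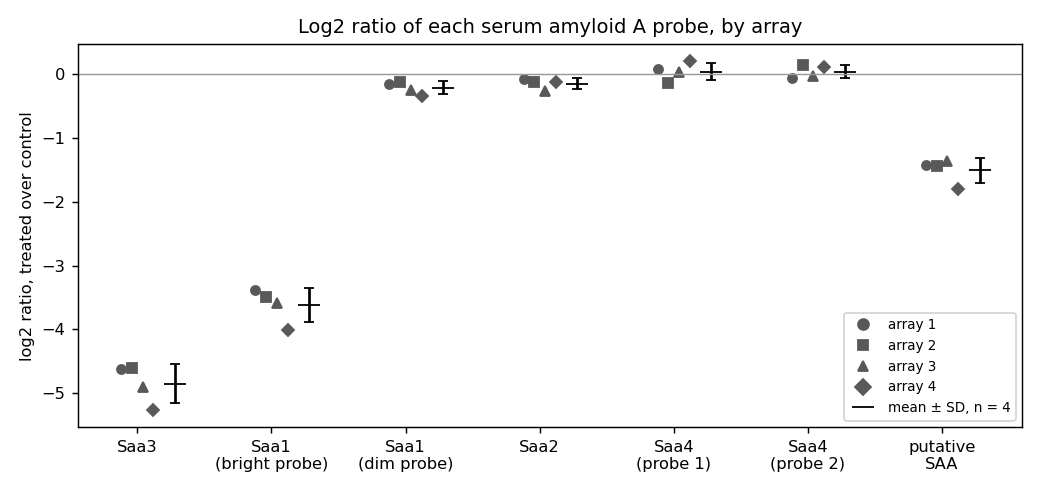
Log2 ratio of treated over control for the same probes, 1 symbol per array with the mean ± SD (n = 4) beside them. Saa3 (-4.85) and the bright Saa1 probe (-3.62) lie apart from the dim Saa1 probe (-0.21), Saa2 (-0.15) and both Saa4 probes (0.039).

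The putative serum amyloid A probe gave a weak signal that was well above background in control cells only. It read 66.2, 81.7, 71.7 and 65.7 in treated samples, none well above background, and 366, 355, 249 and 293 in control samples, all well above it. The log2 ratio was -1.51 ± 0.20 (SD, n = 4), and -3.86 with the scanner LogRatio. Against the dimmest detected probes of the treated channel the control level was at least 2.39-fold higher. This probe was singled out after its values were seen and passed the filter through the control channel, so its values are a description with no test. It is 80.0% identical to the dim Saa1 probe over the 50 bases that overlap, and that probe was not well above background in 3 of the 4 control samples.

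The 4 genes lie in a cluster of 41564 bp on chromosome 7 between the outermost probes. Within 250 kb on either side lay the brightest kept probe of 10 other genes. Of these genes 1 was lower and 6 were higher, and their median log2 ratio was 0.26. Over all genes compared, limma called 30.9% lower and 37.5% higher at an adjusted p under 0.05. The 1 lower was the putative serum amyloid A, which passed the filter through the control channel and whose values are a description with no test. No other gene of the 10 was called lower in the main run. Each of the 6 higher calls ended under at least 1 other setting. Hps5, a subunit of a complex for lysosome-related organelles, lies just beyond Saa2 and had a log2 ratio of 0.31 (SE 0.10, limma adjusted p = 0.0236). Its call was lost without array 2, 3 or 4 (adjusted p = 0.0888, 0.105 and 0.0795). Saal1, on the other side next to Saa3, was at 0.26 (adjusted p = 0.0217) with its brighter probe, a call that ended without array 1, 3 or 4 (adjusted p = 0.0502, 0.0514 and 0.0835), and at -0.54 ± 0.086 (SD) with its other probe, so its direction is not settled. Gtf2h1, a subunit of the transcription factor TFIIH, was at 0.26 (SE 0.083, adjusted p = 0.02), a call that ended without array 1, 2 or 3 (adjusted p = 0.0879, 0.0801 and 0.0682). The lactate dehydrogenase gene Ldha was at 0.35, at 1.16 with another probe, and at -0.22 with median centring (adjusted p = 0.249). Ldhc was at 0.37, and at 0.18 with the scanner LogRatio (adjusted p = 0.127). Spty2d1, a histone chaperone gene, was at 0.79 with the brighter probe and -0.034 with the other. Tph1 (-0.15), Tsg101 (-0.043) and Uevld (-0.017) passed no threshold. With the scanner LogRatio Tph1 (-0.34, adjusted p = 0.00418) and Tsg101 (-0.23, adjusted p = 0.0412) were called lower, and the other Tsg101 probes gave 0.58 and -0.36. An Ifitm2 probe in the window, not the brightest of its gene, gave 1.01, and BC004639 was at background.

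**Figure D3:**
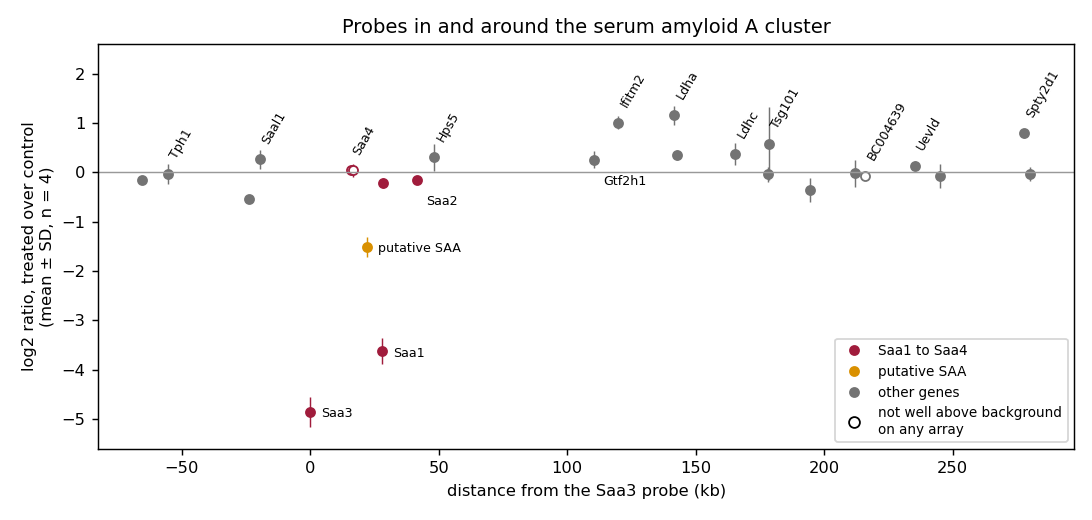
Log2 ratio (mean ± SD over the 4 arrays) of every probe within 250 kb of the cluster, against the distance in kb from the Saa3 probe; members in red, the putative serum amyloid A in yellow, other genes in grey. The deep falls of Saa3 (-4.85) and Saa1 (-3.62) stand apart from the probes of other genes, which lie between -0.54 and 1.16, and from the putative serum amyloid A (-1.51).

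To show what the regions before the genes share, the following lines give the 250 bases before the RefSeq start of Saa3, Saa1 and Saa2 (GRCm38.p6), because Saa3 and Saa1 had the lowest ratios of the 4 while Saa2 read near background. Capitals mark matches to TTGCNNAA, a core of C/EBP sites, and to a relaxed NF-kB motif (GG, any 3 bases, then TTTCC), searched on both strands.
Saa3, chr7:46715677-46715926, minus strand: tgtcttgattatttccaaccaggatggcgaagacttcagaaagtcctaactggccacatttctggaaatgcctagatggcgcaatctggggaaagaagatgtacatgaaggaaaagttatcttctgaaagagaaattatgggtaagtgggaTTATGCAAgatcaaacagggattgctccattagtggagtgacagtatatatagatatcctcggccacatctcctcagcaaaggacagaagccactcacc
Saa1, chr7:46742981-46743230, minus strand: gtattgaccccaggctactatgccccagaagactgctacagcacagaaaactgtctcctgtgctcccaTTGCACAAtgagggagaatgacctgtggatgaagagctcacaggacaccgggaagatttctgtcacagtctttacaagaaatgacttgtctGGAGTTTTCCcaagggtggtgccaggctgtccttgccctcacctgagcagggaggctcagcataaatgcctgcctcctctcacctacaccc
Saa2, chr7:46751583-46751832, plus strand: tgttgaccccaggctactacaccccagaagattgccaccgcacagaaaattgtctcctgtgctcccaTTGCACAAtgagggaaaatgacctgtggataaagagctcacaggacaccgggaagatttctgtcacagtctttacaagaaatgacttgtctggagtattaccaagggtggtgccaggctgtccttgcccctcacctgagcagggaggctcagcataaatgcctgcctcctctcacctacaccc
The stretches of Saa1 and Saa2 were 94.8% identical when aligned, and that of Saa3 was 48.2% identical to Saa1. TTGCNNAA occurred in all 4 genes, against 9.56% of 32851 such stretches: 182 to 175 bases before the start in Saa1, 183 to 176 in Saa2, 99 to 92 in Saa3 and at 2 places in Saa4. The relaxed NF-kB motif, which 4.63% of stretches hold, matched only in Saa1 of the 4, 91 to 82 bases before the start. A looser form (GGG, any 5 bases, then CC), held by 45.8% of stretches, matched once each in Saa1, Saa2 and Saa4 and overlapped no other match. No match to TTCNNNGAA, a STAT site form (7.02% of stretches), or TGANTCA, an AP-1 site form (6.75%), was found in any of the 4. A match is a run of letters, not a measured site.

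The genes that act around serum amyloid A were taken as 6 lists of 102 genes, 87 of which had a kept probe. Of these, 27 were lower (31.0%) and 38 higher (43.7%) by limma's adjusted p, close to the 30.9% and 37.5% of all genes. The median log2 ratio was 0.11, against 0.023 over all genes. This split depended on the normalization. With the LogRatio that the scanner software had computed, which moved the median of all genes to -0.12, 39 were lower and 28 higher, and 58.4% in place of 45.2% of all called genes were lower. With that LogRatio centred on its median the list had 33 lower and 35 higher, and arrays that were median-centred without loess gave 18 lower and 31 higher.

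In the list of inducing cytokines more genes were lower than higher, and the natural inhibitor of interleukin 1 was higher. Of 9 kept genes of this list 5 were lower (55.6%) and 2 higher (22.2%), against 30.9% and 37.5% of all genes, and the median log2 ratio was -0.60. The summed level of the list (log2) overlapped, at 13.26 to 13.33 in treated and 13.18 to 13.32 in control samples. Il1b, which encodes interleukin 1 beta, had log2 ratios of -2.08, -2.54, -2.26 and -2.70. It was not well above background in any treated sample, which bounds its fall at least 3.73-fold. Il1a and Tnf, likewise not well above background in treated samples, were at least 1.88-fold and 1.84-fold lower. Il1b, Il1a and Tnf are among the 5 genes called lower. They passed the filter through the control channel, where they were high, so their values are a description with no test. Il6, measured in all 8 samples, was 1.68-fold lower (log2 ratio -0.75 with SE 0.093, limma adjusted p = 8.23e-05). Il1rn, the receptor antagonist that blocks interleukin 1, was 3.49-fold higher (log2 1.80, SE 0.068, adjusted p = 3.97e-08), and its second probe gave 0.68. Il33, a cytokine of the interleukin 1 family, was at 0.24 (adjusted p = 0.0155), a call that ended under 5 other settings, such as the scanner LogRatio (0.062, adjusted p = 0.51), and without array 3 (0.18, adjusted p = 0.0626). Each fold of Il1b, Il1a and Tnf depends on how background is handled, with log2 ratios of -5.12, -3.66 and -2.26 from the scanner LogRatio.

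Genes for the receptors of these cytokines and their signal proteins, taken as 1 list, were called higher more often than lower. Of 21 such genes 3 were lower (14.3%) and 11 higher (52.4%), against 30.9% and 37.5% of all genes (list median 0.27). Osmr, the oncostatin M receptor, had a log2 ratio of 1.95 (second probe 1.09), Il1r1, the signalling receptor of interleukin 1, of 1.46, and Tnfrsf1a, the main receptor of tumour necrosis factor, of 1.40. Il6st, the shared gp130 chain through which interleukin 6 signals, was 2.49-fold higher (log2 1.31, SE 0.076, limma adjusted p = 4.73e-07). The 3 lower genes were Il1rap, the co-receptor of interleukin 1 (-0.51), the kinase gene Tyk2 (-0.41) and Tnfrsf1b (-0.26). The call of Il1rap ended with its second probe (-0.14, adjusted p = 0.163). The calls of Tyk2 and Tnfrsf1b ended when arrays were only median-centred (adjusted p = 0.0862 and 0.343), and that of Tnfrsf1b with its second probe (-0.17, adjusted p = 0.0931).

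Among the transcription factors, Cebpd and Cebpb were higher and NF-kB genes went both ways. Of 20 genes 4 were lower (20%) and 9 higher (45%), against 30.9% and 37.5% of all genes, and the list median was 0.15. Cebpd, the C/EBP factor most tied to the acute phase, was 3.14-fold higher (log2 1.65, SE 0.084, limma adjusted p = 2.21e-07), between 1.504 and 1.91 on the 4 arrays. Cebpb was at 0.72 (adjusted p = 4.25e-05), at 0.43 with median centring, and at 0.30 with its second probe (adjusted p = 0.074). Nfkb1, the p105 and p50 subunit of NF-kB, was 2.46-fold higher (log2 1.30, second probe 0.97), and the inhibitors Nfkbie and Nfkbia were higher by 0.74 and 0.41. Rela, the p65 subunit, was at -0.27 (adjusted p = 0.0155), and its call ended without array 1 (adjusted p = 0.0517), without array 3 (0.0681), with its second probe (0.123) and with median centring (0.0554). Relb (-0.38), Nfkbib (-0.28) and Bcl3 (-0.27) were called lower, and Nfkbia higher, except with median centring (adjusted p = 0.0564, 0.127, 0.113 and 0.137). Stat3 had a log2 ratio of 0.15 and passed no threshold (adjusted p = 0.223), with array 4 at -0.26 and the others above 0. Without array 4 it was called higher (0.28, adjusted p = 0.0109), and with median centring it was at -0.18 (adjusted p = 0.381).

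Receptors of serum amyloid A were split. Fpr2, the formyl peptide receptor that binds the protein, had log2 ratios between -2.42 and -1.72. It was not well above background in treated samples and at least 3.13-fold lower. It passed the filter through the control channel, where it was high, so its values are a description with no test. Fpr1, a relative of Fpr2 that was well above background in 3 of 4 treated samples, was lower too (log2 -2.94, SE 0.10, limma adjusted p = 2.56e-08). The size of both depends on how background is handled, with -4.79 for Fpr2 and -4.14 for Fpr1 from the scanner LogRatio and -3.35 and -3.55 with normexp at offset 0. Cd14, the lipopolysaccharide co-receptor, was at -1.33 and the ATP-gated channel gene P2rx7 at -1.05. Tlr2 was at -0.56 (SE 0.079), while Tlr4 was 2.20-fold higher (log2 1.14, SE 0.084, adjusted p = 2.41e-06). Scarb1, the HDL receptor that also takes up serum amyloid A, and Selenos were higher by 0.75 and 0.65. Of 9 kept genes 5 were lower (55.6%) and 3 higher (33.3%), against 30.9% and 37.5% of all genes (list median -0.56). Cd36 passed no threshold (-0.17, adjusted p = 0.105, chosen after its value was seen).

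Other acute-phase genes were split. Of 19 kept genes 9 were lower (47.4%) and 8 higher (42.1%), against 30.9% and 37.5% of all genes (list median 0.028). The 9 include Hamp and the 8 include Itih3. Each passed the filter only through the channel where it was high, so their values are a description with no test. Lcn2, the siderophore-binding lipocalin, was 7.45-fold lower (log2 ratio -2.90 with SE 0.087, limma adjusted p = 1.24e-08), with -3.06, -3.07, -2.66 and -2.79 on the 4 arrays. Cfb, complement factor B, was at -1.71, the metallothionein gene Mt2 at -1.52 and haptoglobin, Hp, at -0.82. Ptx3, a long pentraxin made outside the liver, was 6.41-fold higher (log2 2.68, SE 0.079, adjusted p = 1.12e-08), and its second probe gave 2.71. The protease inhibitor genes A2m and Serpina3n were higher by 0.96 and 0.65. Itih3 was 1.49-fold higher, with no control sample well above background (log2 0.57, and 1.27 with the scanner LogRatio). Orm1, Orm2, Orm3, Crp, Fga, Fgb and Ltf, acute-phase genes known mainly from liver or granules, had no kept probe. Of the HDL and lipid transfer genes, 1 of 9 was lower (11.1%) and 5 were higher (55.6%), against 30.9% and 37.5% of all genes (list median 0.73). The lower gene was Apoc1 (-0.36, a call that ended with median centring, adjusted p = 0.153). The cholesterol exporters Abca1 and Abcg1 were higher by 1.22 and 0.84, Pon3, an HDL-associated lactonase gene, by 1.06, and endothelial lipase Lipg by 0.81. Lipg was well above background in 2 of 4 control samples and at 1.44 with the scanner LogRatio. It passed the filter only through the treated channel, where it was high, so its values are a description with no test.

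**Figure D4:**
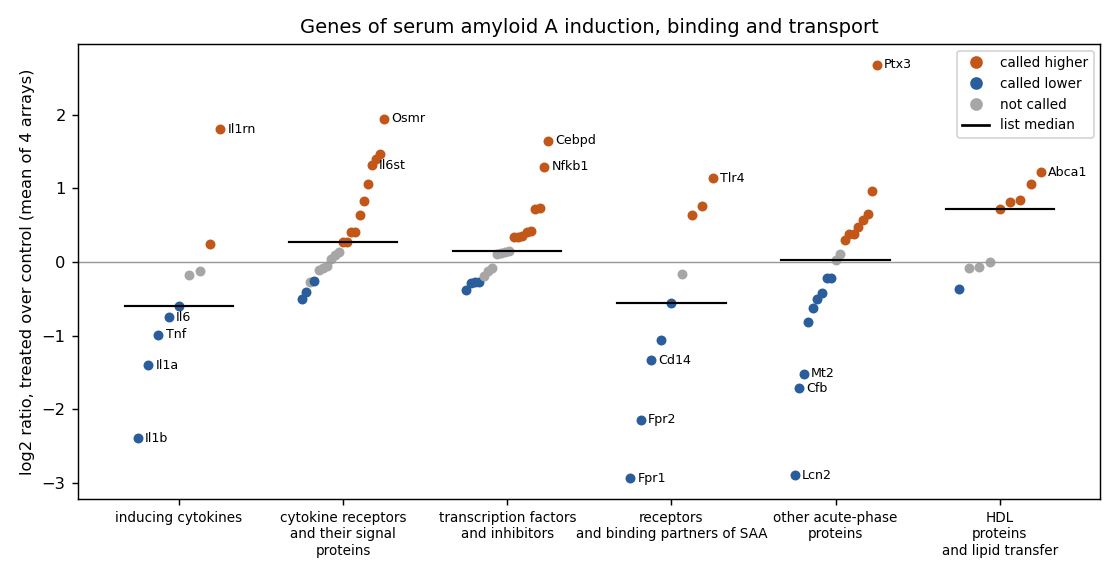
Log2 ratio of treated over control (mean of 4 arrays) for the kept genes of the 6 lists; each point is a gene, coloured by limma call, and the bar is the list median. Il1b, Fpr1 and Lcn2 lie at the bottom of their lists (-2.40, -2.94 and -2.90), and Osmr, Cebpd and Ptx3 at the top of theirs (1.95, 1.65 and 2.68).

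By the root mean square difference of the ratios over the 4 arrays, the genes most like Saa3 were S100a8 (0.53), Stfa3 (0.86), Saa1 (1.23), Serpinb2 (1.28) and Acod1 (1.5005). S100a8, a calprotectin subunit, was well above background in 2 treated samples. The genes most like Saa1 were Serpinb2 (0.20), Marco (0.42), Stfa3 (0.45), Ccl3 (0.45) and Ccl4 (0.45).

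Markers of several cell types moved on the same arrays. The counts of markers here and in the next paragraph stand beside 30.9% of all genes called lower and 37.5% called higher. Of 14 macrophage markers, all kept, 11 were lower and 2 higher (Mrc1 0.35 and Aif1 0.32), with a median log2 ratio of -0.88 and Marco lowest (-3.21). Their summed level (log2) ran from 15.7 to 16.05 in treated and from 17.0 to 17.3 in control samples. Of 10 neutrophil markers only S100a8 (-4.47), Camp (-1.34) and Mpo (0.0039) were kept. S100a8 passed the filter only through the control channel, where it was high, so its value is a description with no test. S100a9, Ngp, Ltf, Elane, Cxcr2 and Csf3r had no kept probe, and Ly6g was not found on the array by its name. The summed level of the kept neutrophil markers ran from 9.01 to 9.21 in treated and from 11.4 to 12.0 in control samples. Fibroblast markers were higher in 10 of 11 (median 1.37; summed level 20.5 to 20.6 against 19.1 to 19.3 in controls). All 10 Sertoli cell markers were higher (median 2.25; 18.8 to 18.9 against 16.7 to 16.8). Fshr, among these 10, passed the filter only through the treated channel, where it was high, so its value is a description with no test. Spermatogonial markers were lower in 6 of 11 (median -0.24; 18.1 to 18.3 against 18.6 to 18.7). They include Ddx4, the germ cell helicase, at -0.37, and Zbtb16 was not found on the array by its name.

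Liver and fat are known sources of the protein. Of 9 hepatocyte markers 3 had a kept probe, with 1 lower (Tat, -0.20), and Alb, Ttr, Apoc3, Cps1 and Hnf4a had none. Serpina1a was not found on the array by its name. The summed level of the kept hepatocyte markers was 14.2 to 14.3 in treated and 14.2 to 14.6 in control samples. Of 5 kept adipocyte markers 1 was lower and 3 higher (summed level 14.1 to 14.3 against 12.5 to 12.8), and Lep and Cfd had no kept probe. Plin1, among the 3 higher, passed the filter only through the treated channel, where it was high, so its value is a description with no test. The part of any of these cell types in the ratios of Saa3 and Saa1 was not tested.

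**Figure D5:**
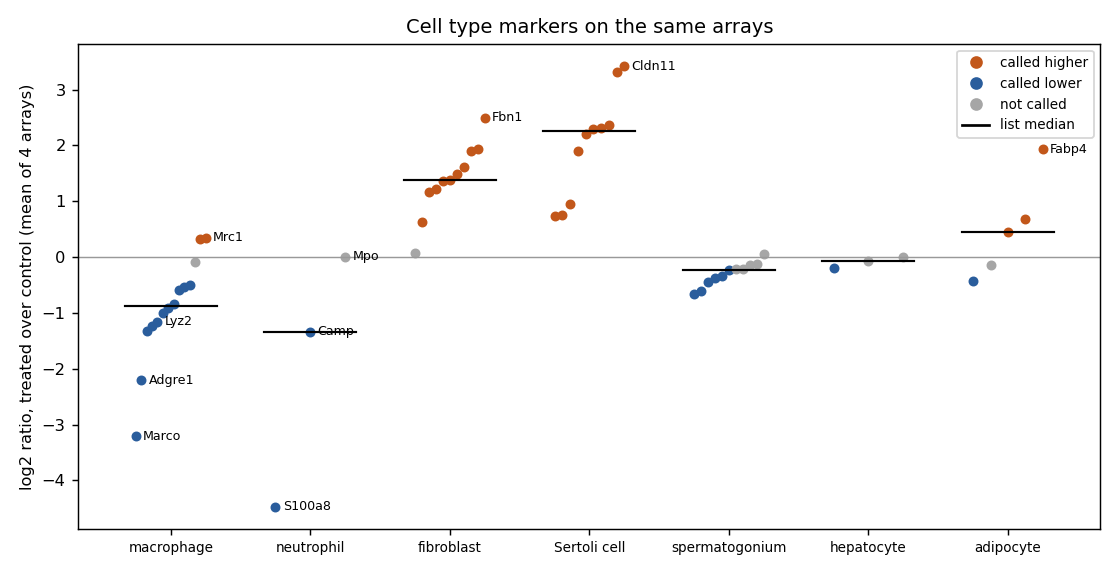
Log2 ratio of treated over control (mean of 4 arrays) for the kept markers of 7 cell types, coloured by limma call, with the list median as a bar. Macrophage markers lie mostly below 0 (median -0.88) and Sertoli cell and fibroblast markers mostly above (2.25 and 1.37).

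Of 41174 probes, 26613 to 28496 per array exceeded background in green (treated) and 25533 to 27891 in red (control). On array 1 the count was 28496 in green and 25533 in red, the widest gap of the 4. Precision is limited by having 4 arrays, across which the log2 ratio of a gene had a median SD of 0.15. Whether the samples came from separate cultures is not stated beyond the design text, so p-values measure the spread between these 4 pairs.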

How the data were processed

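RNA of 4 treated and 4 control samples was measured on 4 two-colour arrays. Spot and local background intensity values were deposited by the authors from scans read with Agilent Feature Extraction (version 10.5.1.1 in the submitters' processing notes). Processed intensity values were background-subtracted and dye-normalized by that software, and LogRatio is log10 of red over green, per the file headers. The deposited series matrix holds log2 values, which equalled log2 of green over red processed signal (within 0.001) for 100% of probes printed once. Column medians were -0.26, 0.011, 0.11 and -0.058, so direction is treated over control and nothing was centred. Quality marks are other values, deposited by the authors.

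Background was corrected by normexp (offset 50) and log2 ratios normalized by loess within each array, giving the 1639 control spots no weight. Outlier marks removed 141 to 171 spots from each array. Of 41174 probes 27730 were kept, and the brightest stood for each of 18454 genes (15608 with a RefSeq-matched name from a GRCm38.p6 table). Ratios were tested against 0 with limma 3.58.1 in R 4.3.3, two-sided, with Benjamini-Hochberg adjustment over all genes, and the fit was tested on simulated data. SE is that of this moderated fit. Levels are log2 values after loess and Aquantile. A fold given as "at least" sets the bright channel's mean against, per array, the higher of the dim probe's own level and the lowest level well above background, and is open to dye bias. Promoters came from the RefSeq table; motifs and alignments used Python 3.11.15 and Biopython 1.88.

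Members and lists were chosen with earlier results of these data known. Named from each list were up to 4 genes per direction by size with 1 sign on all arrays, a set always given, all genes within 250 kb and the 5 nearest in pattern to Saa3 and to Saa1. Alternatives covered normalization, background, filter, probe, channel pairing and each array left out.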

Additional observations from a re-analysis of the deposited data

Results flagged for a closer look

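On 3 of 64 named genes 1 array stood apart from the other three by Dixon's test, and chance gives about 1 in 20 such results. For Tnfrsf1a array 3 had a log2 ratio of 1.70 against 1.26 to 1.34 on the others (gap over range 0.831). For Relb array 2 was at -0.17 against -0.47 to -0.42 (0.836). For Gtf2h1, a neighbour of the cluster, array 4 was at -0.010 against 0.33 to 0.39 (0.852).

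The probe described as a putative serum amyloid A carries none of the member names, yet it gave a control level of 8.20 (log2) with all 4 control samples well above background, and 6.69 in treated samples with none.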

How the results depend on the processing

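Saa3 and Saa1 (bright probe) stayed far below 0 under every setting that gave them a value, while their ranks moved with the setting, from 1 to 3 for Saa3 and from 2 to 12 for Saa1. Without 1 array the mean ran from -4.93 to -4.71 for Saa3, from -3.70 to -3.49 for Saa1 and from -0.17 to -0.11 for Saa2. The scanner LogRatio and the series matrix gave -5.18, -3.90 and -0.40. The median-centred LogRatio (over kept probes) gave -0.29 and normexp with offset 0 gave -0.23 for Saa2. The other Saa1 probe, at background, gave -0.21. The cause of these shifts was not tested. Saa4 has no value, since it is at background, and a mean over kept probes adds nothing, since each member kept at most 1.

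Median centring in place of loess left 3575 of all genes lower in place of 5705. Second brightest probes, with 6608 genes in place of 18454, gave 1780 lower and 2481 higher (6924 with the brightest), and 3 lower and 11 higher of 29 pathway genes. Leaving out 1 array gave 24 to 28 pathway genes lower and 35 to 39 higher, and 4998 to 5388 of all genes lower and 6448 to 6749 higher. The array pairs the channels; separate channels with no replicate block gave 28 pathway genes lower and 37 higher. Signal near background limits what can be said of Saa2, Saa4 and the dim Saa1 probe.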
